A study of Rattus norvegicus with 36 samples.

Results

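Mature miRNAs that are widely studied in inflamed and transformed tissue were followed through the colon of the polyposis in rat colon (Pirc) model: rno-miR-21-5p, rno-miR-21-3p, rno-miR-146a-5p, rno-miR-146b-5p, rno-miR-155-5p, rno-miR-223-3p, rno-miR-132-3p, rno-miR-212-3p, rno-miR-142-3p and rno-miR-142-5p, written below without the rat prefix. They were chosen by name and make up 10 of the 559 entries of the miRNA table. All 10 were among the 494 entries high enough to test. Small RNA-seq and RNA-seq each covered 18 libraries in 6 groups of 3. Pirc rats are male F344 rats that carry a germline Apc mutation and develop colon tumors, and they were set beside wild-type (WT) rats of the same background. Rats ate either a control diet (Ctrl) or the same diet with 10% (w/w) freeze-dried baby spinach (SPI), and tissue was taken at 30 weeks of age. The groups were tumors of SPI-fed Pirc rats (PST), tumors of Ctrl-fed Pirc rats (PCT), normal-looking colon of SPI-fed Pirc rats (PSN), normal-looking colon of Ctrl-fed Pirc rats (PCN), normal colon of SPI-fed WT rats (WSN) and normal colon of Ctrl-fed WT rats (WCN). The normal-looking Pirc colon carried the same mutation and, by the study's account, came from the animals that bore the tumors. The sample titles of PCN and PSN instead read as Pirc rats with no tumor. Pieces of tissue rather than sorted cells were profiled, so that fewer cells of a type and less RNA per cell cannot be told apart.

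A miRNA guides an Argonaute protein to mRNAs through its seed, the short stretch near its 5′ end that pairs with sites in the target, and pairing lowers the stability or the translation of that mRNA. miR-21 is abundant in many tumors and targets tumor suppressors such as Pdcd4. miR-146 is induced by NF-kB and targets the signaling proteins Irak1 and Traf6, miR-155 is induced in activated leukocytes, miR-223 is a myeloid miRNA abundant in neutrophils, miR-132 and miR-212 are induced through CREB, and miR-142 is made mainly in blood cells. These roles come mostly from work in human and mouse cells.

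The sequences are shown because shared seeds and near-identical bodies decide which of the 10 can be read apart. They are the RefSeq sequences on the rat build GRCr8, written 5′ to 3′ with the seed (bases 2 to 8) in capitals, and all 10 names matched. Arms of the same hairpin, and relatives with the same seed, are set together.
miR-21-5p: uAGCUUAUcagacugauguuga
miR-21-3p: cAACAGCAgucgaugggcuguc
miR-146a-5p: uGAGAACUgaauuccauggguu
miR-146b-5p: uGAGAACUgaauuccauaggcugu
miR-155-5p: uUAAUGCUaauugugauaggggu
miR-223-3p: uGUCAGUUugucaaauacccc
miR-132-3p: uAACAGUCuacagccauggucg
miR-212-3p: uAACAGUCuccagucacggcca
miR-142-3p: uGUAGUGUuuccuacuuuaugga
miR-142-5p: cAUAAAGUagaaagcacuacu
The 10 sequences carried 8 distinct seeds and came from 8 hairpins. miR-146a-5p and miR-146b-5p had the same seed and, counting from the 5′ end of miR-146a-5p, differed by G18A and U21C, with 2 further bases at the 3′ end of miR-146b-5p. miR-132-3p and miR-212-3p also had the same seed but differed at 5 positions counted from the 5′ end of miR-132-3p (A10C, C14U, U17C, U20C and G22A). No other mature miRNA among the 724 in the reference table carried any of the 8 seeds.

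Mir132 and Mir212 are neighbors on chromosome 10. miR-21-5p lies at chr10:71902653-71902674 and miR-21-3p at chr10:71902615-71902636, both on the minus strand, and the Mir21 hairpin begins 531 bases beyond the 3′ end of the protein-coding gene Vmp1 (chr10:71903223-72002337, minus strand). miR-146a-5p lies at chr10:28350053-28350074 on the minus strand and miR-146b-5p at chr1:255144874-255144897 on the plus strand. miR-155-5p lies at chr11:37261117-37261139 on the plus strand, within the span of the noncoding gene Mir155hg (chr11:37259928-37262157). miR-223-3p lies at chrX:65151450-65151470, miR-132-3p at chr10:60522091-60522112 and miR-212-3p at chr10:60521811-60521832, all on the plus strand. miR-142-5p at chr10:73055119-73055139 and miR-142-3p at chr10:73055155-73055177 come from the same plus-strand hairpin.

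Levels are given as the deposited signal values, which are reads scaled by a factor for each library. Each library held 724954 to 5376082 reads over all entries, and 1 read was worth 0.527 to 3.07 units, so that a value near 10 rests on few reads. Read totals also differed between libraries of the same group. By mean value over the 18 libraries, miR-21-5p ranked 3rd of all entries, miR-146b-5p 35th and miR-146a-5p 36th, miR-142-5p 119th, miR-155-5p 145th, miR-142-3p 153rd, miR-132-3p 160th, miR-223-3p 171st, miR-21-3p 262nd and miR-212-3p 271st. Ligation bias affects such ranks, and they are not numbers of molecules.

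**Figure D1:**
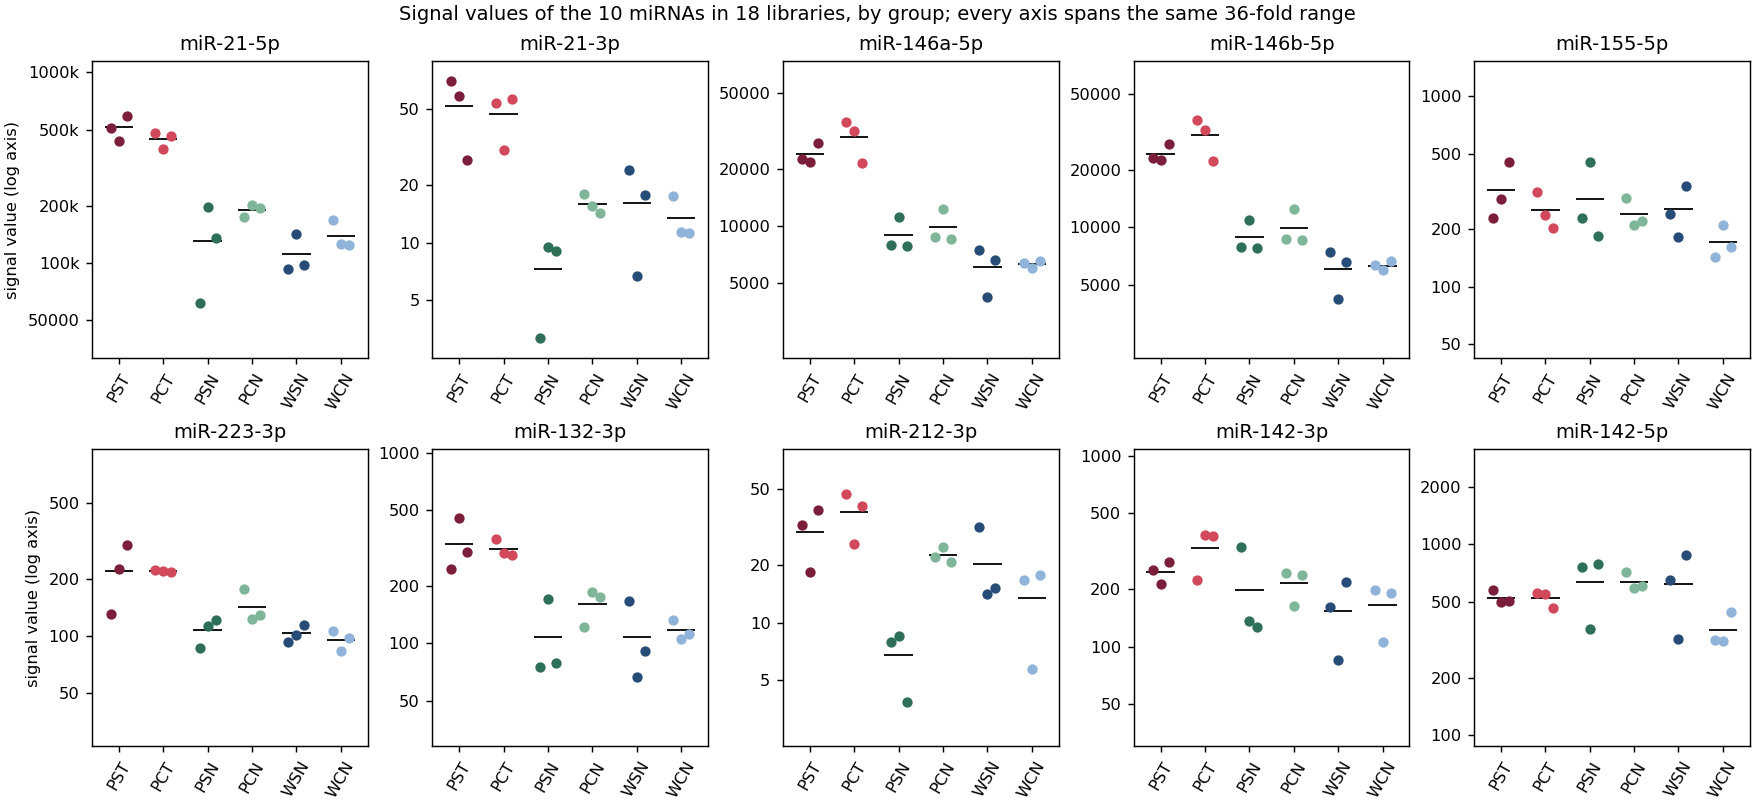
Signal value (log axis) of each of the 10 miRNAs in the 18 libraries, 3 for each of the 6 groups; points are libraries, horizontal lines are group means and every axis spans the same fold range. The tumor libraries (PST and PCT) of miR-21-5p, miR-146a-5p and miR-146b-5p sat above every library of the other 4 groups, whereas those of miR-155-5p and miR-142-5p lay within the range of the other groups.

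Tumors were first set against normal-looking colon of the same diet. In PCT vs. PCN, miR-21-5p, miR-21-3p, miR-146a-5p and miR-146b-5p rose, by 1.24 to 1.61 on the log2 scale, and none of the 10 fell. In PST vs. PSN, miR-223-3p, miR-132-3p and miR-212-3p rose as well, so that 7 of 10 rose, by 0.96 to 2.79, and again none fell. miR-155-5p and both arms of miR-142 did not pass the test in either comparison. Calls are adjusted p under 0.05 in limma, on log2(value + 0.5) over all 494 miRNAs. Among all 494, 15.8% were called in PCT vs. PCN (78 miRNAs; 6.07% higher and 9.72% lower) and 22.1% in PST vs. PSN (109 miRNAs; 7.49% higher and 14.6% lower). The median log2 fold change over the 10 was 0.83 in PCT vs. PCN and 1.44 in PST vs. PSN, beside 0.00 and -0.18 over all miRNAs tested. Libraries did not overlap between the groups for 8 of the 10 in PCT vs. PCN (39.9% of all miRNAs tested in either direction). Of these, 7 were higher in tumors and 1, miR-142-5p, was lower. In PST vs. PSN libraries did not overlap for 7 of the 10, all higher in tumors (32.4% of all in either direction). All these counts hold miR-146a-5p and miR-146b-5p separately, although they can share reads.

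The split of all calls into higher and lower depended on the scaling. Of the calls, 38.5% were higher in PCT vs. PCN as deposited, 59.6% with every library scaled to the same total and 51.4% with TMM factors, and the shares for PST vs. PSN were 33.9%, 55% and 48.2%. Scaling to the same total moved the median of all miRNAs to 0.17 in PCT vs. PCN and to 0.04 in PST vs. PSN. The number of the 10 called in PCT vs. PCN was 4 as deposited, 6 with equal totals and 5 with TMM, and in PST vs. PSN it was 7 under all 3. With miR-146a-5p and miR-146b-5p summed into 1 entry, 3 and 6 entries were called.

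miR-21-5p, the guide arm of miR-21, was among the most abundant miRNAs of every group and more so in tumors. Its signal values were 508815, 437680 and 592803 in PST and 479505, 398154 and 462641 in PCT. They were 61313, 196890 and 134510 in PSN and 173357, 201643 and 193648 in PCN. Every tumor library was therefore above every normal-looking one, and the PSN libraries were far more spread than the PCN ones, with the first PSN library lowest of all 18. As a share of its library's total, miR-21-5p took 19.7 to 21.5% in PST and 18.1 to 20.9% in PCT, against 2.16 to 5.57% in PSN and 6.41 to 8.24% in PCN. Values in WT colon were 93330, 141980 and 97998 in WSN and 167404, 126015 and 124402 in WCN, or 3.29 to 4.02% and 3.36 to 4.52% of the total. The rise in tumors was 2.12 ± 0.29 on the log2 scale in PST vs. PSN (SE, 3 against 3 libraries, limma adjusted p = 1.55e-05) and 1.24 ± 0.29 in PCT vs. PCN (limma adjusted p = 0.00632). It stayed past the threshold when any single library was left out. In the study's own RT-qPCR of Pirc tumors, miR-21, its arm not named, was among the candidates that were not significant. In order of group means, PST and PCT overlapped above all other groups, the PCN libraries were all above the WCN ones, and the PSN libraries overlapped those of PCN, WCN and WSN.

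The other arm, miR-21-3p, is usually the less stable arm of the hairpin, and it was present at a small fraction of the level of its partner. It had 70.1, 58.3 and 27.2 in PST and 54.0, 30.6 and 56.8 in PCT. It had 3.16, 9.52 and 9.0 in PSN and 18, 15.5 and 14.3 in PCN, and WT colon held 24.1, 6.64 and 17.8 in WSN and 17.6, 11.4 and 11.2 in WCN, with 6 to 81 reads a library over the whole set. The tumor libraries were above the normal-looking ones on each diet, with PSN the lowest group. The difference was 2.79 ± 0.51 in PST vs. PSN (limma adjusted p = 0.000375), whereas 1.49 ± 0.51 in PCT vs. PCN passed only just (limma adjusted p = 0.0478). The PCT vs. PCN call was lost in each of the 6 fits that left out a library (adjusted p 0.0560 to 0.158). It was also lost with the rat, assumed from the library number, as a block (0.0773). The ratio of miR-21-3p to miR-21-5p did not separate tumors from normal-looking colon: the difference was 0.53 on the log2 scale (exact permutation within diet, two-sided, 6 against 6 libraries, p = 0.11, 0.11 after adjustment over 3 ratios), and 0.75 without the third PST library (p = 0.015).

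The mRNA of Vmp1, whose transcript can run on into Mir21 in human cells, was measured in the RNA-seq libraries from the same groups. In RPKM, reads scaled by transcript length and library depth, Vmp1 had 19.2, 47.3 and 22.6 in PST and 19.9, 16.8 and 16.8 in PCT, against 6.44, 5.56 and 5.31 in PSN and 11.1, 11.4 and 7.89 in PCN. All 6 tumor libraries were above all 6 normal-looking ones. On the log2(RPKM + 0.5) scale Vmp1 rose by 2.16 in PST vs. PSN (limma adjusted p = 1.84e-05) and by 0.80 in PCT vs. PCN (adjusted p = 0.0237). The PCT vs. PCN call was lost without the first PCT library (0.0882), without the third PCN library (0.115) and with the rat as a block (0.0570).

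miR-146a is an NF-kB-induced brake on Toll-like receptor and interleukin-1 signaling. The miR-146a-5p entry, which can share reads with miR-146b-5p, was higher in tumors on both diets. Its values were 22397, 21783 and 27103 in PST and 34989, 31352 and 21522 in PCT. They were 7980, 11161 and 7848 in PSN and 8741, 12335 and 8565 in PCN. WT colon held 7447, 4258 and 6619 in WSN and 6391, 5992 and 6582 in WCN. Tumors thus formed a level of their own, followed by normal-looking Pirc colon, whose libraries were all above those of WT colon on the same diet. The rise in tumors was 1.41 ± 0.25 in PST vs. PSN (limma adjusted p = 0.000304) and 1.56 ± 0.25 in PCT vs. PCN (adjusted p = 0.00011), and both calls held without any single library.

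miR-146b-5p could not be read as a separate result, and miR-146a-5p could not be assigned to its own hairpin either. The ratio of miR-146b-5p to miR-146a-5p was 0.980 to 1.04 in all 18 libraries, although the hairpins lie on different chromosomes. The 2 substitutions sit near the 3′ end, so that the 2 miRNAs are treated as able to share reads. Values of miR-146b-5p spanned 22544 to 27391 in PST and 22294 to 36454 in PCT, against 7796 to 10936 in PSN and 8561 to 12490 in PCN. Its log2 fold changes were 1.47 in PST vs. PSN (limma adjusted p = 0.000224) and 1.61 in PCT vs. PCN (adjusted p = 8.62e-05). The ratio was 1.01 to 1.04 in the 6 tumors and 0.980 to 1.01 in the 6 normal-looking libraries, a 1.036-fold difference (exact permutation within diet, two-sided, p = 0.005, the smallest that 400 arrangements can give, 0.015 after adjustment over 3 ratios). Because the 2 can share reads, that difference cannot be read as a change in the relative levels of the 2 miRNAs.

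The opposite arms separate the hairpins, because miR-146a-3p and miR-146b-3p differ at 15 positions. They are shown to make that visible, with bases 2 to 8 in capitals.
miR-146a-3p: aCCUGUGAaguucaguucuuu
miR-146b-3p: cCUAGGGAcucaguucuggug
miR-146b-3p had 139, 123 and 159 in PST and 206, 165 and 193 in PCT, against 15.8, 16.9 and 27.0 in PSN and 19.4, 59.6 and 29.7 in PCN. No tumor library fell near the normal-looking ones, and the rise was 2.82 in PST vs. PSN (limma adjusted p = 1.52e-05) and 2.51 ± 0.39 in PCT vs. PCN (adjusted p = 7.28e-05), kept when any library was left out. WT colon held 12.1, 14.9 and 16.0 in WSN and 27.3, 12.8 and 21.5 in WCN. miR-146a-3p, from the other hairpin, was scarce, with 2 to 32 reads a library. It had 21.2, 6.14 and 9.88 in PST and 16.4, 17.7 and 11.9 in PCT, against 16.9, 12.7 and 12.2 in PSN and 6.92, 3.58 and 11 in PCN. It did not pass the test, with 95% intervals for the log2 difference of -1.46 to 0.82 in PST vs. PSN (limma adjusted p = 0.710) and 0.01 to 2.29 in PCT vs. PCN (adjusted p = 0.166). The ratio of miR-146b-3p to miR-146a-3p was 6.54 to 20 in PST and 9.33 to 16.2 in PCT, against 0.938 to 2.21 in PSN and 2.70 to 16.7 in PCN. The highest PST ratio rested on 2 reads of miR-146a-3p, and the highest PCN ratio on 3 reads.

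**Figure D2:**
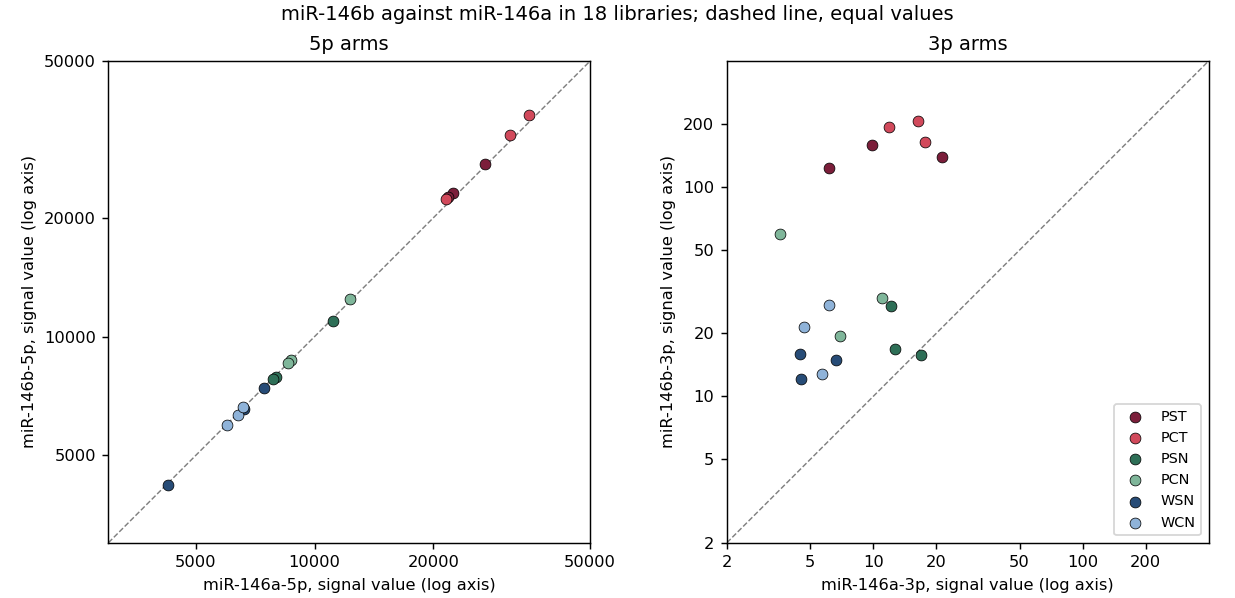
Signal value of miR-146b against miR-146a in each of the 18 libraries (log axes), for the 5p arms (left) and the 3p arms (right); points are libraries colored by group and the dashed line marks equal values. The 5p points lie on the line, with ratios of 0.980 to 1.04, whereas the 3p points of the 6 tumors stand at 123 to 206 for miR-146b-3p.

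miR-155-5p, which is induced in activated lymphocytes and macrophages, showed no ordering of groups. It had 230, 288 and 451 in PST and 313, 238 and 204 in PCT. It had 229, 452 and 184 in PSN and 291, 210 and 221 in PCN, and 241, 183 and 340 in WSN and 143, 211 and 163 in WCN. Every neighboring pair of groups overlapped, and the highest library of PST and that of PSN were nearly equal. The log2 difference was 0.21 in PST vs. PSN (95% interval -0.50 to 0.93, limma adjusted p = 0.693) and 0.06 in PCT vs. PCN (-0.66 to 0.77, adjusted p = 0.956), and the intervals still hold rises of up to 0.93 and 0.77. Its other arm, miR-155-3p, was near the floor with at most 4 reads a library. Mir155hg mRNA was below the filter, at 0.70 to 0.95 RPKM in PST and 0.26 to 0.52 in PCT, against 0.36 to 0.56 in PSN and 0.08 to 0.27 in PCN.

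miR-223-3p, the myeloid miRNA that limits neutrophil activation in mice, was moderately higher in tumors. It had 130, 224 and 301 in PST and 221, 219 and 217 in PCT. It had 87.0, 113 and 121 in PSN and 176, 123 and 130 in PCN, and 93.4, 101 and 115 in WSN and 106, 84.0 and 97.3 in WCN. Tumor and normal-looking libraries did not overlap on either diet, but the lowest PST library was close to the highest PSN one. miR-223-3p rose by 0.96 ± 0.30 in PST vs. PSN (limma adjusted p = 0.0248), a call lost without the second PST library, the third PST library or the first PSN library (adjusted p up to 0.116), and with only the groups compared in the fit (0.102). In PCT vs. PCN the difference was 0.63 (95% interval 0.02 to 1.25) and did not pass (adjusted p = 0.162). Its other arm, miR-223-5p, gave 0.44 in PST vs. PSN (adjusted p = 0.409) and 0.36 in PCT vs. PCN (adjusted p = 0.578).

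miR-132-3p and miR-212-3p, neighbors on chromosome 10 with a shared seed and different bodies, were read separately. miR-132-3p had 246, 454 and 299 in PST and 350.2, 298 and 290.1 in PCT. It had 75.4, 170.3 and 78.4 in PSN and 122, 186 and 175 in PCN, and 166, 66.4 and 90.7 in WSN and 133, 105 and 112 in WCN. All 6 tumors were above all 12 other libraries. miR-132-3p rose by 1.68 ± 0.36 in PST vs. PSN (limma adjusted p = 0.00141), while 0.97 ± 0.36 in PCT vs. PCN was just short of the threshold (adjusted p = 0.0620, and 0.0410 with the rat as a block).

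miR-212-3p was less abundant, with 4 to 63 reads a library. It had 32.6, 18.4 and 38.9 in PST and 47.5, 25.9 and 40.6 in PCT. It had 7.91, 8.46 and 3.86 in PSN and 22.2, 25.0 and 20.9 in PCN, and 31.6, 14.1 and 15.1 in WSN and 16.7, 5.69 and 17.8 in WCN. The PSN libraries were the low ones, and PCN lay only just below PCT. The difference was 2.08 ± 0.49 in PST vs. PSN (limma adjusted p = 0.00339) and 0.69 in PCT vs. PCN (95% interval -0.32 to 1.70, adjusted p = 0.373). The other arms were also higher in tumors. miR-212-5p rose by 1.26 in PST vs. PSN (limma adjusted p = 0.0225) and by 1.20 in PCT vs. PCN (adjusted p = 0.0404). miR-132-5p rose by 1.35 in PCT vs. PCN (adjusted p = 0.0327) and gave 1.15 in PST vs. PSN (adjusted p = 0.0501). Unlike miR-212-3p, miR-212-5p was not low in PSN, at 23.1 to 34.3 against 16.5 to 27.4 in PCN. The miR-212-5p calls held in 4 of 6 fits that left out a library in PST vs. PSN and in 2 of 6 in PCT vs. PCN, and the miR-132-5p call in 1 of 6.

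The arms of miR-142, the blood-cell miRNA, diverged. miR-142-3p had 251, 211.7 and 279 in PST and 223, 385 and 381 in PCT. It had 334, 136 and 127 in PSN and 244, 163 and 237 in PCN, and 161, 84.6 and 217 in WSN and 197, 105 and 191 in WCN. All groups overlapped their neighbors, and the log2 difference was 0.45 in PST vs. PSN (95% interval -0.35 to 1.26, limma adjusted p = 0.426) and 0.60 in PCT vs. PCN (-0.21 to 1.40, adjusted p = 0.328).

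miR-142-5p had 574, 497 and 503 in PST and 558, 552 and 465 in PCT. It had 765, 358 and 789 in PSN and 713, 593 and 603 in PCN, and 651, 320.2 and 884 in WSN and 314, 313 and 441 in WCN. Tumor libraries were tightly grouped, all PCT libraries lay below all PCN ones, and WCN was the low group. The log2 difference was -0.20 in PST vs. PSN (95% interval -0.89 to 0.50, limma adjusted p = 0.709; 0.08 with equal totals) and -0.28 in PCT vs. PCN (-0.97 to 0.42, adjusted p = 0.647). The ratio of miR-142-5p to miR-142-3p was 1.22 to 2.51 in the 6 tumors, with a median of 2.05, and 2.29 to 6.23 in the 6 normal-looking libraries, with a median of 2.78. That difference of -0.76 on the log2 scale, or 0.589-fold, passed the exact permutation test within diet (two-sided, 400 arrangements, p = 0.015, 0.0225 after adjustment over 3 ratios). Each diet alone gave -0.65 on SPI (p = 0.2) and -0.87 on Ctrl (p = 0.1) by the same exact permutation test, and 3 against 3 libraries cannot go below 0.1. WT colon spanned 1.59 to 4.07.

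**Figure D3:**
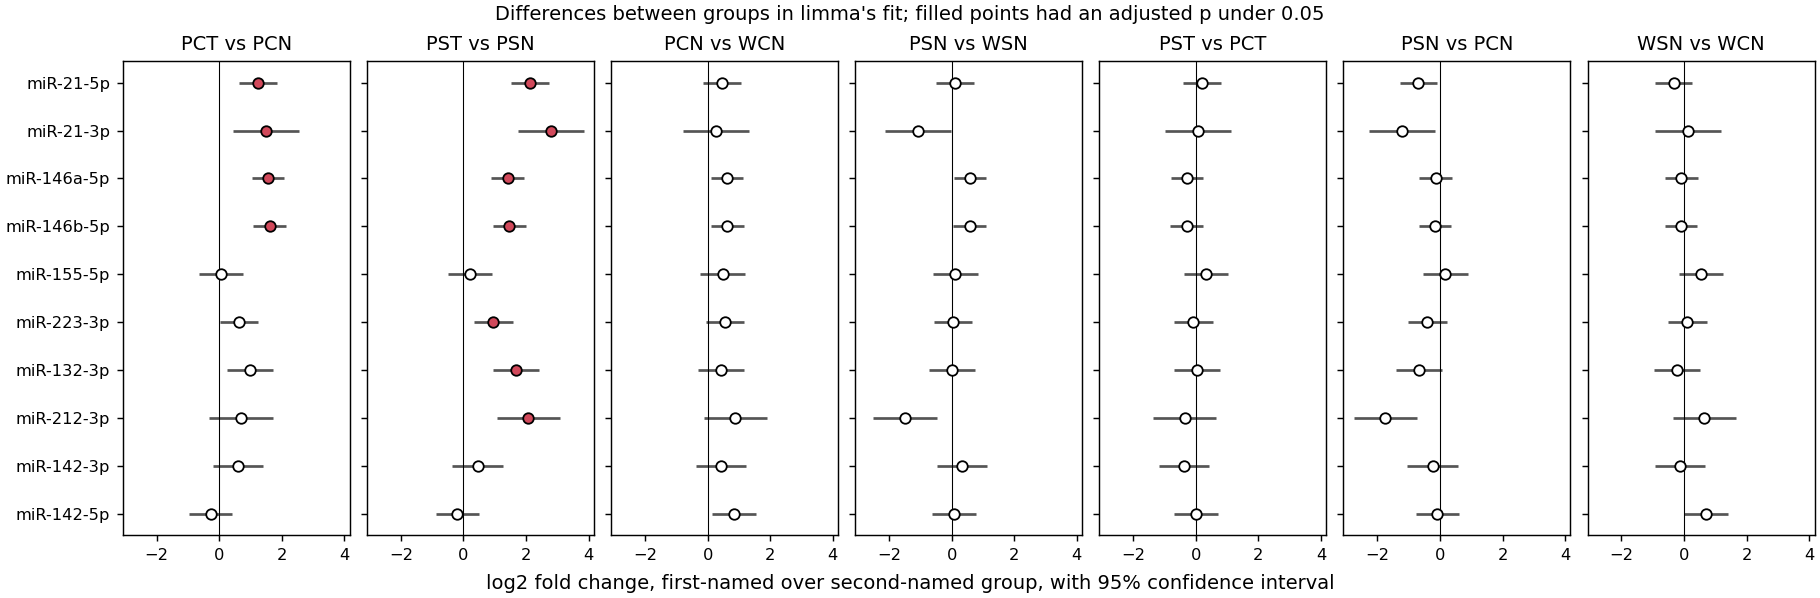
Log2 fold change of the 10 miRNAs (rows) in 7 comparisons (panels), the first-named group over the second, with 95% confidence intervals from limma; filled points had an adjusted p under 0.05. Filled points appear for 4 miRNAs in PCT vs. PCN and for 7 in PST vs. PSN and in none of the other 5 comparisons.

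Tumors were also set against WT colon of the same diet, where again no member fell past the threshold. These comparisons share the tumor libraries with those above and are not independent of them. In PCT vs. WCN, 7 of 10 rose (21.1% of all 494 called, 8.5% higher and 12.6% lower): miR-146a-5p by 2.18, miR-146b-5p by 2.24, miR-21-3p by 1.76, miR-21-5p by 1.69, miR-212-3p by 1.58, miR-132-3p by 1.42 and miR-223-3p by 1.19, with limma adjusted p from 5.93e-07 to 0.0219. In PST vs. WSN, 6 of 10 rose (23.3% of all called, 9.31% higher and 14% lower): miR-21-5p by 2.22, miR-146b-5p by 2.04, miR-146a-5p by 1.99, miR-21-3p by 1.72, miR-132-3p by 1.68 and miR-223-3p by 1.00, while miR-212-3p gave 0.58 (adjusted p = 0.409). miR-142-3p gave 1.01 in PCT vs. WCN (adjusted p = 0.0622) and 0.77 in PST vs. WSN (adjusted p = 0.142). The calls of miR-21-3p in both comparisons, of miR-212-3p in PCT vs. WCN and of miR-223-3p in PST vs. WSN were each lost in 3 of 6 fits that left out a library, with adjusted p up to 0.0606 and 0.0960 for miR-21-3p, 0.135 for miR-212-3p and 0.0926 for miR-223-3p. With only the groups compared in the fit, PST vs. WSN lost the calls of miR-21-3p (0.0982) and miR-223-3p (0.112). The higher share of all calls was 40.4% in PCT vs. WCN and 40% in PST vs. WSN, and 78.0% and 62.6% with equal totals, which moved the median of all miRNAs by more than 0.1, to 0.52 and 0.12. With equal totals all 10 were called in PCT vs. WCN.

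Genotype was compared in non-tumor tissue, which asks whether the Apc mutation is accompanied by a change in colon that looks normal. None of the 10 passed in PCN vs. WCN (0% of all 494 by limma) or in PSN vs. WSN (0.202% of all, 1 miRNA, 0.202% higher). At an unadjusted p under 0.05 there were 3 of the 10 in PCN vs. WCN, against 20 of 494, and 4 of the 10 in PSN vs. WSN, against 59 of 494. miR-146a-5p and miR-146b-5p, which can share reads, are counted separately in these numbers and in the non-overlap counts that follow. On Ctrl, all 10 estimates were above 0, with a median of 0.52 beside -0.00 over all miRNAs (0.37 with equal totals), and 6 of 10 had no overlap between PCN and WCN libraries (10.3% of all miRNAs). On SPI, 8 of 10 were above 0 with a median of 0.09 beside 0.03, and 3 had no overlap (15.8% of all), with miR-146a-5p and miR-146b-5p above and miR-212-3p below. miR-146a-5p had the same sign on both diets, 0.62 in PCN vs. WCN (95% interval 0.10 to 1.15, limma adjusted p = 0.811) and 0.58 in PSN vs. WSN (0.06 to 1.10, adjusted p = 0.349). miR-142-5p gave 0.85 in PCN vs. WCN (0.16 to 1.55, adjusted p = 0.811), and miR-212-3p gave -1.49 in PSN vs. WSN (-2.50 to -0.49, adjusted p = 0.237).

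SPI against Ctrl was the dietary question, and none of the 10 passed in any tissue. The calls among all miRNAs were 1 in PST vs. PCT (0.202%, 0.202% higher), 1 in PSN vs. PCN (0.202%, 0.202% higher) and 0 in WSN vs. WCN (0%), by limma. At an unadjusted p under 0.05 the 10 gave 0, 3 and 1, against 36, 54 and 14 of all 494. In tumors every interval spanned 0: miR-21-5p differed by 0.19 (-0.41 to 0.80, adjusted p = 0.918), miR-146a-5p by -0.28 (-0.80 to 0.24, adjusted p = 0.905) and miR-155-5p by 0.33 (-0.39 to 1.04, adjusted p = 0.905). No member separated PST from PCT (10.5% of all miRNAs did), and none separated WSN from WCN (4.86%).

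In normal-looking Pirc colon 9 of the 10 estimates were below 0 on SPI, with a median of -0.32 beside 0.03 over all miRNAs. miR-212-3p gave -1.75 (95% interval -2.75 to -0.74, limma adjusted p = 0.154), miR-21-3p -1.22 (-2.27 to -0.17, adjusted p = 0.336) and miR-21-5p -0.69 (-1.29 to -0.08, adjusted p = 0.354). The other arm, miR-212-5p, was not lower in PSN, at 23.1 to 34.3 against 16.5 to 27.4 in PCN. The libraries of miR-212-3p, miR-21-3p and miR-223-3p did not overlap between PSN and PCN, being lower in PSN (19.6% of all miRNAs did not overlap), and for miR-21-5p the first PSN library alone was far below, with -0.22 left when it was dropped.

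Whether the tumor difference depended on diet was tested as the difference between PST vs. PSN and PCT vs. PCN. No miRNA passed (0% of 494, limma; 33 at an unadjusted p under 0.05). miR-21-5p gave 0.88 (95% interval 0.02 to 1.74, adjusted p = 0.677; 0.41 without the first PSN library), miR-212-3p 1.39 (-0.04 to 2.81, adjusted p = 0.677) and miR-21-3p 1.30 (-0.19 to 2.78, adjusted p = 0.723), so that the larger number called in PST vs. PSN was not shown to differ from that in PCT vs. PCN. The difference between PSN vs. WSN and PCN vs. WCN gave 1 call among all (0.202%, 0.202% higher) and none among the 10, and all 10 estimates were below 0, while 52.4% of all miRNAs were above 0, with a median over all of 0.05 as deposited and -0.29 with equal totals. miR-212-3p had the lowest unadjusted p of the 10 there, at -2.38 (-3.81 to -0.96, adjusted p = 0.524).

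How alike the 10 ran was described by Pearson's r of log2 values over the 18 libraries, which share the group differences above. The pairs ran from -0.168 (miR-142-5p with miR-21-5p) to 0.898 (miR-132-3p with miR-146b-5p), apart from miR-146a-5p with miR-146b-5p at 1.00. Arms of the same hairpin gave 0.818 for miR-21-5p with miR-21-3p and 0.417 for miR-142-3p with miR-142-5p, and miR-132-3p with miR-212-3p gave 0.700. Among the 224 miRNAs with a mean value of at least 50, those most like miR-21-5p were miR-146b-3p (0.925), miR-93-5p (0.870) and miR-20a-5p (0.863), and those least like it were miR-145-3p (-0.912), miR-125a-5p (-0.882) and miR-139-5p (-0.877). miR-93-5p, of the miR-17 family, was also among the 3 most like miR-146b-5p (0.932) and most like miR-223-3p (0.854), whereas miR-142-3p had no close match (miR-17-5p, 0.645).

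Leukocyte mRNAs were read because several of the 10 are made in blood cells. Of 35 leukocyte marker mRNAs tested, 12 rose and 4 fell in PST vs. PSN (42.3% of all 11544 genes called, 25.9% higher and 16.5% lower), and 10 rose and 3 fell in PCT vs. PCN (32.7% of all, 21% higher and 11.7% lower). The neutrophil list moved furthest, with 6 of 7 genes higher in PST vs. PSN and 7 of 7 in PCT vs. PCN and a median of 2.40 in each. Csf3r, the receptor for the neutrophil growth factor G-CSF, rose by 2.79 and 2.48, and S100a9, a calcium-binding protein abundant in neutrophils, rose by 4.40 and 4.30. Mmp8, neutrophil collagenase, gave 0.79 in PST vs. PSN (limma adjusted p = 0.0763) and rose by 2.04 in PCT vs. PCN. The summed neutrophil markers spanned 201 to 1734 RPKM in PST and 906 to 1140 in PCT, against 34.6 to 50.5 in PSN and 28.5 to 76.7 in PCN, and up to 3 of the 8 genes were at 0 in a normal-looking library.

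The other leukocyte lists moved less. Pan-leukocyte markers summed to 102 to 122 RPKM in PST and 69.1 to 113 in PCT, against 64.2 to 84.9 in PSN and 53.6 to 76.8 in PCN, and 2 and 1 of 5 rose. T cell markers gave 3 and 1 of 7 higher, and in monocyte and macrophage markers 1 of 9 rose (Cd68) and 1 fell (Cd163) in both comparisons. None of the 3 B cell markers passed, and mast cell markers fell in 3 and 2 of 4. All 5 smooth muscle markers fell, with sums of 141 to 234 RPKM in PST and 117 to 253 in PCT against 1899 to 2822 in PSN and 920 to 2236 in PCN. The 7 colon epithelium markers, by which the tissue label was checked, were above 0 in every library, with sums of 5933 to 6670 RPKM in PST and 5329 to 6102 in PCT against 7332 to 8246 in PSN and 5579 to 8813 in PCN. Neutrophil and smooth muscle markers differed between tumors and normal-looking colon, as did miR-21 and miR-146. Of the comparisons of tumors with normal-looking colon, miR-223-3p passed the test only in PST vs. PSN. Within PST, neutrophil markers and miR-223-3p did not follow the same order. In PST libraries 1, 2 and 3, the neutrophil sums were 1734, 201 and 944 RPKM. In the same-numbered small RNA libraries, miR-223-3p was 130, 224 and 301. The part of any cell type in the miRNA differences was not tested.

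**Figure D4:**
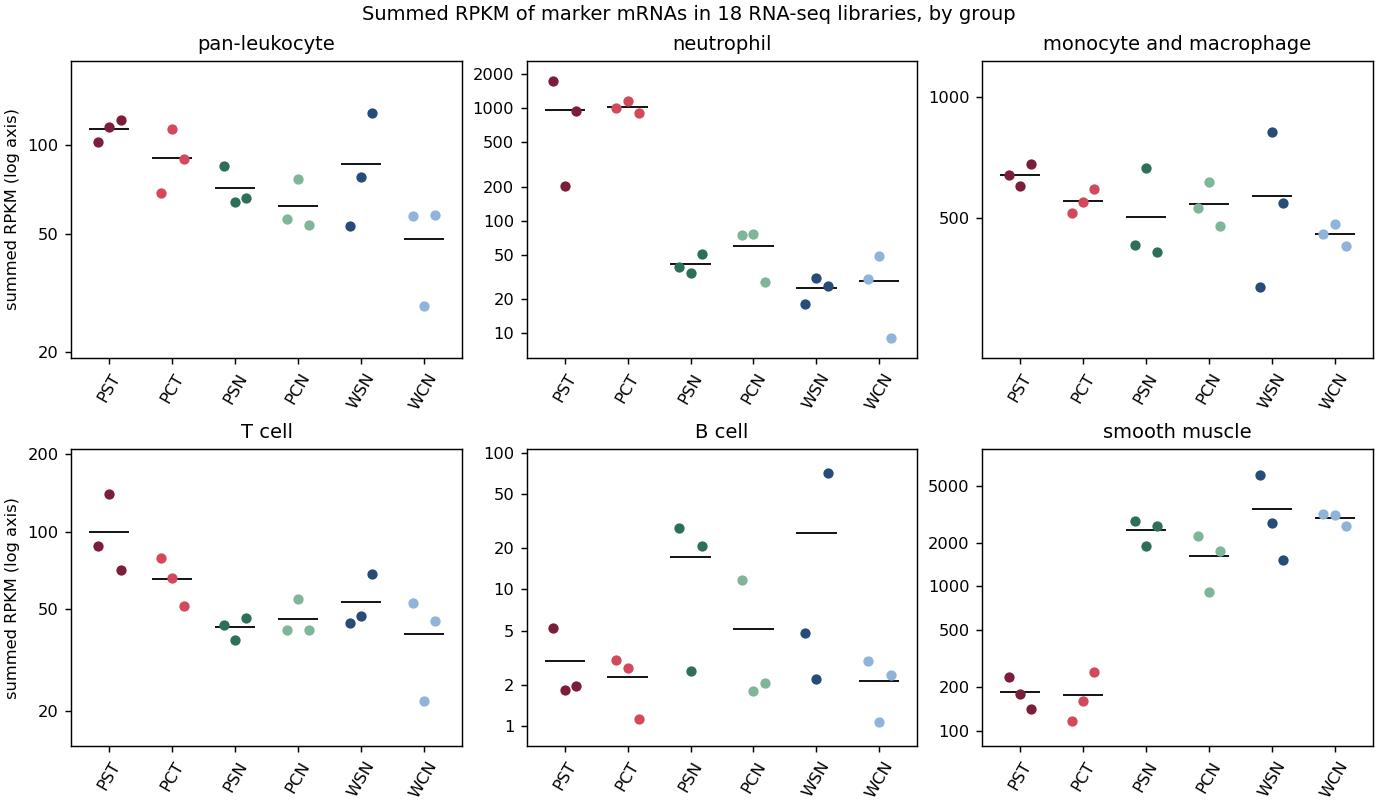
Summed RPKM (log axis) of the marker mRNAs of 6 cell types in the 18 RNA-seq libraries, 3 for each group; points are libraries and lines are group means. Neutrophil sums were 201 to 1734 in tumors and at most 76.7 in normal-looking Pirc colon, and smooth muscle sums were at most 253 in tumors and at least 920 in normal-looking colon.

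Of 17 other miRNAs listed for blood, immune and vessel cells, 2 rose and 2 fell in PST vs. PSN (of all miRNAs, 7.49% rose and 14.6% fell), and 0 rose and 1 fell in PCT vs. PCN (of all, 6.07% rose and 9.72% fell). miR-451-5p of red cells rose by 1.64 in PST vs. PSN (limma adjusted p = 0.0462, and 0.0753 with the rat as a block) and gave 0.78 in PCT vs. PCN (adjusted p = 0.411). miR-27a-3p rose by 0.94 in PST vs. PSN (adjusted p = 0.0177, and 0.0667 with the block). Without 1 library each, the miR-451-5p call held in 1 of 6 fits and the miR-27a-3p call in 3 of 6. miR-126a-5p, of endothelium, fell by 1.07 in PST vs. PSN (adjusted p = 0.00496), and miR-125a-5p fell by 1.40 in PST vs. PSN (adjusted p = 0.000679) and by 1.04 in PCT vs. PCN (adjusted p = 0.0110, and 0.0503 without the first PCT library). miR-342-3p gave 1.00 in PST vs. PSN (adjusted p = 0.0575) and 0.97 in PCT vs. PCN (adjusted p = 0.0870). miR-150-5p, a lymphocyte miRNA, gave -0.07 in PST vs. PSN (adjusted p = 0.938) and -0.98 in PCT vs. PCN (adjusted p = 0.174, and 0.0244 with the block).

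The mRNAs of transcription factors and miRNA machinery tied to these miRNAs rose or did not pass. Of 15 tested, 10 rose in PST vs. PSN and 7 in PCT vs. PCN, where 25.9% and 21% of all genes were higher, and none fell, where 16.5% and 11.7% were lower. Fosl1, an AP-1 subunit, rose by 3.82 in PST vs. PSN (limma adjusted p = 2.94e-05) and by 2.54 in PCT vs. PCN (adjusted p = 0.00109). Runx1, a hematopoietic transcription factor, rose by 1.29 (adjusted p = 0.000231) and 1.37 (adjusted p = 0.000333) in the same order. Rela, the p65 subunit of NF-kB, rose by 0.45 (adjusted p = 0.00342, and 0.0581 with only the groups compared) and 0.36 (adjusted p = 0.0161, up to 0.0704 without 1 library and 0.132 with median-of-ratios scaling), and Ago2, an Argonaute protein, by 1.37 (adjusted p = 0.000458) and 0.99 (adjusted p = 0.00681).

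Known target mRNAs of the 10, from human and mouse work, were counted in both directions. Of 53 listed, 45 were in the RNA-seq table and 43 were tested. In PST vs. PSN 15 rose and 5 fell, and in PCT vs. PCN 9 rose and 5 fell, with median log2 fold changes of 0.32 and 0.19 beside 0.12 and 0.13 over all genes. The shares higher and lower over all genes were 25.9% and 16.5%, and 21% and 11.7%, as above. Without the third PST library the number called in PST vs. PSN was 11 rather than 20, and without the first PCT library that in PCT vs. PCN was 7 rather than 14.

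Among the 12 targets of miR-21 tested, 3 rose and 2 fell in PST vs. PSN, and 2 rose and 2 fell in PCT vs. PCN. Pdcd4, an inhibitor of translation, had 55.8, 57.2 and 97.2 RPKM in PST and 65.1, 114 and 101 in PCT, against 123, 211 and 196 in PSN and 223, 162 and 229 in PCN. All tumor libraries were below all normal-looking ones, and Pdcd4 fell by 1.34 in PST vs. PSN (limma adjusted p = 0.00251) and by 1.15 in PCT vs. PCN (adjusted p = 0.00954, and 0.0563 without the first PCT library). Reck, a membrane inhibitor of metalloproteinases, fell by 0.77 in PST vs. PSN (adjusted p = 0.00612) and by 0.55 in PCT vs. PCN (adjusted p = 0.0437, and 0.0721 with the rat as a block). Without 1 library each, the PCT vs. PCN call of Reck held in 2 of 6 fits, with adjusted p up to 0.138.

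Among the 7 targets of miR-146, 3 rose in PST vs. PSN and 2 in PCT vs. PCN, and none fell. Irak1, the kinase downstream of interleukin-1 receptors, had 66.0, 70.4 and 63.9 RPKM in PST and 60.6, 69.7 and 66.0 in PCT, against 32.3, 39.6 and 41.8 in PSN and 45.5, 43.5 and 42.4 in PCN. Tumors were above normal-looking colon in every library, and Irak1 rose by 0.82 (limma adjusted p = 0.000167) and 0.57 (adjusted p = 0.00367). Notch1, a cell fate receptor, rose by 1.07 (adjusted p = 0.00151) and 1.34 (adjusted p = 0.000596). Traf6, the ubiquitin ligase that acts with Irak1, gave -0.05 (adjusted p = 0.846) and -0.03 (adjusted p = 0.917).

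Of the 8 targets of miR-155, 5 rose in PST vs. PSN and 2 in PCT vs. PCN, and none fell. Socs1, a suppressor of cytokine signaling, rose by 1.29 (limma adjusted p = 0.0294) and 1.39 (adjusted p = 0.0267), and Spi1, the myeloid factor PU.1, by 1.06 and 1.24 (adjusted p = 0.0165 in PCT vs. PCN). Of the 7 targets of miR-223, 1 rose and 1 fell in PST vs. PSN, and 3 rose and 1 fell in PCT vs. PCN. Nlrp3, the inflammasome sensor, rose by 1.13 (adjusted p = 0.0250) and 1.18 (adjusted p = 0.0253), and Foxo1, a transcription factor, fell by 0.68 (adjusted p = 0.0118) and 0.54 (adjusted p = 0.0464). Stmn1, a microtubule regulator, rose by 1.23 in PCT vs. PCN (adjusted p = 0.0155) and gave 0.85 in PST vs. PSN (adjusted p = 0.0654, and 0.0386 with the rat as a block), and Igf1r, a growth factor receptor, rose by 0.87 in PCT vs. PCN (adjusted p = 0.0227) and gave 0.52 in PST vs. PSN (adjusted p = 0.137). The Socs1, Spi1 and Nlrp3 calls held in only 2 or 3 of 6 fits that left out a library in each comparison, and in PCT vs. PCN those of Igf1r in 2, Stmn1 in 4 and Foxo1 in 1 of 6.

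Ache, acetylcholinesterase and a target of miR-132 in mouse leukocytes, was the target with the largest fall in both comparisons. It had 5.54 to 7.07 RPKM in PST and 5.93 to 7.42 in PCT, against 33.1 to 46.7 in PSN and 21.4 to 39.0 in PCN, and the groups did not overlap. Ache fell by 2.64 in PST vs. PSN (limma adjusted p = 4.99e-06) and by 2.17 in PCT vs. PCN (adjusted p = 5.77e-05). The other 4 tested targets of miR-132 and miR-212 gave 1 rise, of Rasa1 in PST vs. PSN by 0.64 (adjusted p = 0.00435). Of the 4 targets of miR-142, Cfl2, a muscle cofilin, fell by 1.21 (adjusted p = 0.00224) and 1.10 (adjusted p = 0.00627), with Rac1 and Tgfbr1 rising in PST vs. PSN by 0.66 (adjusted p = 0.00415) and 0.57 (adjusted p = 0.0261). The smooth muscle markers given above fell beside Ache and Cfl2, and their part in these falls was not tested.

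**Figure D5:**
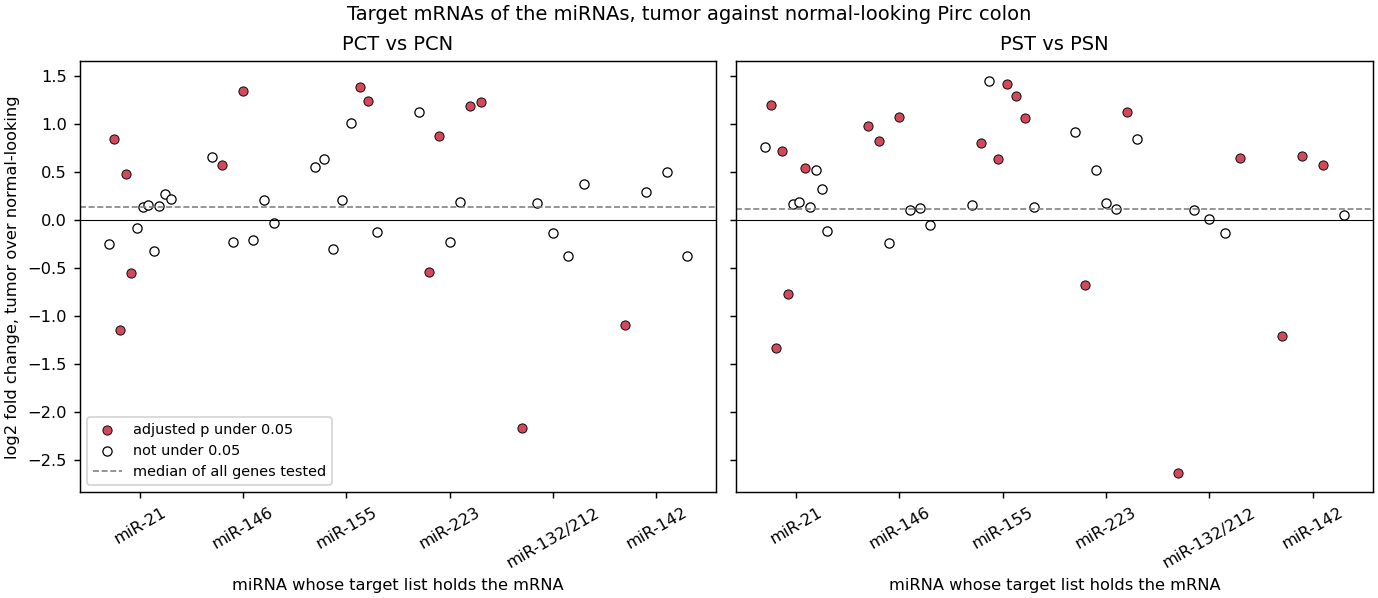
Log2 fold change of the 43 target mRNAs tested, tumor over normal-looking Pirc colon, in PCT vs. PCN (left) and PST vs. PSN (right), by the miRNA whose list holds them; filled points had a limma adjusted p under 0.05 and the dashed line is the median of all genes tested. Of the filled points, 9 lie above and 5 below 0 in PCT vs. PCN and 15 above and 5 below in PST vs. PSN, and Ache is lowest at -2.17 and -2.64.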

How the data were processed

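Small RNA and poly(A) RNA libraries were made from rat colon, 18 of each. For the miRNA table, the authors trimmed reads, collapsed identical ones and matched them to rat mature miRNAs of miRBase by blastn, and the deposited values are a signal, reads divided by a factor for each library (release and build: not given in the sources used here). RNA-seq values were deposited as RPKM. Bowtie2 and DESeq2 appear in the submitters' processing notes, without versions. The smallest value of each library was read as 2 reads (tolerance 0.001), which yields the depth of 724954 to 5376082 reads a library, and low values have the larger counting error. Libraries correlated at 0.929 to 0.983 (miRNA) and 0.935 to 0.992 (mRNA), and none was a copy of another.

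Entries with a value of at least 1 in at least 3 libraries were tested, on log2(value + 0.5), with limma 3.58.1 (R 4.3.3, statmod 1.5.0, trend and robust moderation) over all 6 groups, with 12 residual degrees of freedom and Benjamini-Hochberg adjustment at 0.05 over all entries. Fold changes are on that scale, which understates the change of low entries. This model replaced a count model because the deposited values are scaled reads. Ratios of arms were tested by exact permutation within diet. Ratios and figures were made in Python 3.11.15 with scipy 1.17.1, matplotlib 3.10.9, pandas 2.3.3 and numpy 2.4.6. The fit was tested on simulated data. In the RNA-seq table, 26 of 17378 entries have dates for names and were left out.

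The groups are 3 libraries each, described as biological replicates, and p-values measure the spread between them. The study describes normal-looking colon as coming from the animals that bore the tumors, so the rat was also fitted as a block (4 residual degrees of freedom). Deviations of same-numbered tumor and normal-looking libraries correlated at -0.12 to 0.219 for miRNAs and -0.05 to 0.193 for mRNAs. The members, target, regulator and marker lists were chosen with earlier results of these data known. Every member was tested and counted in each comparison, but the text does not give every member's value for each. The targets, regulators and markers whose values are described were taken from those lists. Most were the called genes of a list with the smallest p in PCT vs. PCN, so that they are not typical of it. Alternatives were other pseudocounts, filters and scalings, summing miR-146a-5p with miR-146b-5p, only the groups compared, the block, and leaving out each library. Some target mRNAs are counted in the lists but not reported here by name.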

Additional observations from a re-analysis of the deposited data

Results flagged for a closer look

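Among the 6 tumors, the third PST library had a lower ratio of miR-146b-5p to miR-146a-5p than the other 5, with a log2 ratio of 0.01523, or 1.01-fold, against 1.03- to 1.04-fold in the others. Its gap to the nearest tumor was large for the spread of the group by Dixon's criterion. Chance flags about 1 in 20 groups, several groups were screened, and the 2 sequences can share reads.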

How the results depend on the processing

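Repeating the tests with pseudocounts from 0.1 to 2, with a filter at a value of 10 or none, with equal totals or TMM factors, with only the groups compared and with the rat or replicate number as a block left the direction of every called member unchanged. The numbers called among the 10 were the same with the block (4 in PCT vs. PCN, 7 in PST vs. PSN, 7 in PCT vs. WCN and 6 in PST vs. WSN), although the block exchanged miR-21-3p (limma adjusted p = 0.0773) for miR-132-3p (0.0410) in PCT vs. PCN and changed no other call of the 10. Without 1 library each, the ranges were 3 to 3, 6 to 7, 5 to 7 and 4 to 6. With only the groups compared, all miRNAs called numbered 121 in PCT vs. PCN (78 with all groups), 67 in PST vs. PSN (109), 53 in PST vs. WSN (115), 0 in PSN vs. WSN (1) and 0 in PST vs. PCT (1), and equal totals gave 173 in PCT vs. WCN (104). Without 1 library they numbered 34 to 74 in PCT vs. PCN (lowest without the first PCT library), 63 to 109 in PST vs. PSN (lowest without the first PSN library), 63 to 100 in PCT vs. WCN, 81 to 121 in PST vs. WSN, 0 to 2 in PSN vs. WSN and 0 to 3 in PST vs. PCT. Target mRNAs called numbered 7 to 15 in PCT vs. PCN and 11 to 20 in PST vs. PSN without 1 library, and leukocyte marker mRNAs 9 to 12 and 14 to 17. Single diets gave miR-142-5p/miR-142-3p differences of -0.65 (SPI, exact permutation p = 0.2) and -0.87 (Ctrl, p = 0.1), and miR-146b-5p/miR-146a-5p differences of 0.0539 (SPI) and 0.0476 (Ctrl), p = 0.1 each. Without 1 library these ratios ran from -0.86 to -0.57 and from 0.0461 to 0.0566, and that of miR-21 from 0.43 to 0.75. Single calls were also lost with only the groups compared for miR-212-5p (adjusted p = 0.0524), miR-451-5p (0.0564), miR-27a-3p (0.0723), Socs1 (0.0546) and Foxo1 (0.0612) in PST vs. PSN and for Reck (0.0955), Stmn1 (0.0639) and Igf1r (0.0563) in PCT vs. PCN. That control-diet comparison also lost Vmp1 with median-of-ratios scaling (0.0661), Foxo1 without a filter (0.0561) and miR-21-3p with a pseudocount of 0.1 (0.0645) or no filter (0.0577). In PCT vs. PCN, miR-223-3p (0.0474, 0.0470) and miR-132-3p (0.0306, 0.0150) passed with equal totals and with only the groups compared. Signs turned only for values that passed no test. Equal totals gave 0.080 for miR-142-5p and 0.20 for miR-150-5p in PST vs. PSN, 0.21 for miR-142-5p in PST vs. WSN, 0.14, 0.13, 0.011 and 0.088 for miR-146a-5p, miR-146b-5p, miR-132-3p and miR-142-3p in WSN vs. WCN, and -0.028, -0.061 and -0.11 for miR-21-3p, miR-132-3p and miR-142-5p in PST vs. PCT. TMM gave 0.11 for miR-150-5p in PST vs. PSN, 0.0017 for miR-142-5p in PST vs. WSN, and -0.014 and -0.056 for miR-223-3p and miR-132-3p in PSN vs. WSN. Without 1 library each, the values that turned ran over these ranges. In PCT vs. PCN, miR-155-5p -0.11 to 0.20 and Traf6 -0.13 to 0.11. In PST vs. PSN, miR-146a-3p -0.78 to 0.071, miR-150-5p -0.21 to 0.0071, miR-155-5p -0.054 to 0.59 and Traf6 -0.23 to 0.067. In PSN vs. WSN miR-21-5p -0.26 to 0.58, miR-155-5p -0.26 to 0.39, miR-223-3p -0.050 to 0.19, miR-132-3p -0.38 to 0.37, miR-142-3p -0.13 to 0.62 and miR-142-5p -0.34 to 0.45. In PST vs. WSN miR-142-5p -0.53 to 0.20. In PSN vs. PCN, miR-146a-5p -0.30 to 0.037, miR-146b-5p -0.32 to 0.021, miR-155-5p -0.21 to 0.43, miR-142-3p -0.68 to 0.014 and miR-142-5p -0.28 to 0.29. In WSN vs. WCN miR-21-3p -0.25 to 0.64, miR-146a-5p -0.25 to 0.15, miR-146b-5p -0.26 to 0.15, miR-132-3p -0.58 to 0.078 and miR-142-3p -0.44 to 0.24. In PST vs. PCT miR-21-3p -0.20 to 0.49, miR-223-3p -0.36 to 0.25, miR-132-3p -0.20 to 0.24 and miR-142-5p -0.083 to 0.048. In the tumor by diet difference miR-146a-5p -0.35 to 0.021, miR-146b-5p -0.35 to 0.021, miR-155-5p -0.11 to 0.54, miR-142-3p -0.40 to 0.30 and miR-142-5p -0.29 to 0.28. In the genotype by diet difference miR-21-5p -0.72 to 0.12, miR-146a-5p -0.29 to 0.12, miR-146b-5p -0.30 to 0.12 and miR-142-3p -0.55 to 0.20. The causes were not tested. The edgeR and DESeq2 count tests listed among the alternatives were not run. The values are scaled reads, and the reads inferred from them were used for depth and for the TMM factors. Depth limits miR-21-3p, miR-212-3p, miR-146a-3p and miR-155-3p, which had few reads in some libraries.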

Other observations

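The 4 libraries with more than 10 RPKM of summed B cell markers were also the 4 highest for miR-142-5p. The third WSN library had 70.9 RPKM and a miR-142-5p value of 884, the first PSN library 28.2 and 765, the third PSN library 20.8 and 789, and the first PCN library 11.7 and 713. The other 14 libraries had at most 5.25 RPKM and miR-142-5p values of 313 to 651. The WSN library with 70.9 RPKM also held the highest miR-150-5p value of all 18, 3798. In the PSN libraries above 10 RPKM, miR-150-5p was 664 and 660, at ranks 9 and 10. In the PCN library above 10 RPKM it was 796, at rank 6. miR-142-3p, the other arm of the hairpin, ranked 9 in that WSN library. It ranked 3 and 16 in those PSN libraries and 6 in that PCN library. The grouping by B cell markers and miR-142-5p was noticed after the values were seen, was not tested and is given as values only.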
